A study of Mus musculus with 6 samples.

Results

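The genes described here are 32 components of Wnt signalling, taken by name from a list of 8 Wnt ligands, 7 Frizzled receptors, 2 LRP co-receptors, 3 Dishevelled proteins, 4 proteins of the beta-catenin complex, 3 TCF/LEF factors and 5 inhibitors. All 32 were found among the 54393 genes of the deposited table. Poly(A) RNA of the hippocampus was sequenced from 3 wild-type libraries (named 1-1, 2-1 and 2-2) and 3 miR-301a-/- libraries (1-1, 2-2 and 3-1, called knockout here). Both genotypes were C57BL/6 mice of 6 to 8 weeks, untreated and kept under standard housing. The labels give no other allele, do not say how the miR-301a allele was made or whether it acts in every cell, and leave unsaid whether the libraries are different animals. What the p-values weigh is thus the spread between libraries, part of which may be technical. The question was which transcripts differ in level when this microRNA is missing.

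Wnt ligands are secreted, lipid-modified proteins that bind a Frizzled receptor together with LRP5 or LRP6. Receptor binding recruits Dishevelled and Axin to the membrane and halts the destruction complex, in which Axin and APC hold beta-catenin for phosphorylation and breakdown, so that beta-catenin accumulates and acts with TCF/LEF factors on target genes. In the hippocampus the pathway is known for its part in forming the structure, in adult neurogenesis of the dentate gyrus and in the assembly of synapses.

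The microRNA removed in the knockout is shown with relatives of the same seed, because the seed sets which 3' UTR words can pair with it and the relatives lie at other loci. The mature sequences are from RefSeq on GRCm38.p6, written 5' to 3', with the seed (bases 2 to 8) in capitals.
mmu-miR-301a-3p: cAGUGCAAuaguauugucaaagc
mmu-miR-130a-3p: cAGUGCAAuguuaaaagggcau
mmu-miR-130b-3p: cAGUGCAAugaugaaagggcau
mmu-miR-130c: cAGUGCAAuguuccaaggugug
The 4 seeds are identical, and the sequences differ after it. They lie on chromosome 11 (87113054 to 87113076, plus strand), chromosome 2 (84741116 to 84741137, minus strand), chromosome 16 (17124071 to 17124092, minus strand) and chromosome 9 (53400808 to 53400829, minus strand), in the order printed. The family also includes miR-301b.

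The word that pairs with this seed, TTGCACT, was searched on the sense strand of the longest GENCODE M21 3' UTR of each gene. It was found in 3 of the 32 genes, Fzd3, Lrp6 and Fzd8, with 1 match each. The sites of Fzd3 and Lrp6 are printed with their flanks, the matched word in capitals, since they are where the lost microRNA could pair with a Wnt receptor transcript.
Fzd3: ctcagtacccgTTGCACTcttggagttat
Lrp6: gtaggagagacTTGCACTgtcgtgtgccg
The printed Fzd3 stretch is GRCm38 chr14:65193355-65193383, minus strand, and the word within it (65193366 to 65193372) begins at base 9347 of a 3' UTR of 10270 nt. The printed Lrp6 stretch is chr6:134448718-134448746, minus strand, and its word (134448729 to 134448735) begins at base 2051 of a 3' UTR of 4310 nt. Of the 29 tested Wnt genes 10.3% held the word, against 12.2% of the 12737 tested genes with an annotated 3' UTR. The longer word TTGCACTA, an 8-base match, was in none of the 32 and in 324 of the 12737. A match describes letters in a window and is not a proven binding site.

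The table does not name its unit, and its values were read as FPKM-like, that is, scaled for transcript length and sequencing depth. Depth was not given. If the smallest values in genes of at least 2000 nt stand for 1 read each, the smallest value times length was 36.0 to 59.0 across the libraries, and dividing by it gives an upper limit on the reads behind a value. Genes with a value above 0 numbered 24101 to 25121 per library, and no library was a copy of another. Mir301 was listed at 0 in all 6 libraries, so it does not check the genotype labels. Its host gene Ska2 was at 5.70 to 6.08 in wild type and 5.17 to 6.14 in knockout. Of the labelled tissue's markers, 8 genes of hippocampal neurons were all tested, summed to 2621 to 3381 per library, and included Neurod2, a transcription factor of forebrain excitatory neurons, at 61.5 to 79.0. Such genes are not particular to the hippocampus, so their sum does not check the dissection. The sum of 7 neocortical markers was 68.8 to 97.2 in wild type and 53.3 to 71.1 in knockout.

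No Wnt gene passed the test. The comparison, with limma on log2(value + 1), took in the 14708 genes that reached a value of 1 in 3 libraries or more. Of the Wnt genes 29 did so, and Wnt3, Fzd5 and Sfrp2 did not. Of the 29, 0 had a Benjamini-Hochberg adjusted p under 0.05 with limma, against 0.109% of all tested genes (16 genes, 0.0544% higher and 0.0544% lower in knockout). At an unadjusted limma p under 0.05 there was 1 Wnt gene, Frzb, or 3.45%, against 5.72% of all tested genes. It was higher in knockout, a direction in which 2.61% of all tested genes had such a p. Without wild type 2-1 the count was 4 (Frzb, Wnt2, Wnt7b and Wnt9a, or 13.8%, against 5.00% of all tested genes), and 0 of them passed after adjustment. The authors' deposited table gave an adjusted p of 1 for all 32 genes. Its lowest unadjusted p among them, from a test not named there, was 0.56 for Frzb, so its adjusted values add little to the limma result. Log2 fold changes of knockout over wild type were above 0 for 17 and below 0 for 12 of the 29, with a median of 0.0074, against 48.8% above 0 and a median of -0.0038 over all tested genes. They were smaller than 0.2 in size for 23 of the 29 (79.3%, against 82.1% of all tested genes). In whole tissue, fewer cells of a type and less RNA per cell cannot be told apart, which holds for every value below.

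The intervals show how large a difference in log2(value + 1) these libraries could hide. Adding 1 shrinks the change of low genes, so their intervals do not bound a change of the value itself. With an offset of 0.1 the log2 fold change of Wnt10a was -0.51, against -0.29 with an offset of 1. The 95% interval of the log2 fold change lay within 0.5 on either side of 0 for 21 of the 29 genes, and within 1 for all 29. The middle gene had an interval of 0.29 to each side. Over all tested genes, 73.5% of the intervals lay within 0.5 and 94.5% within 1. The widest was that of Wnt2, from -0.92 to 0.47, and the only interval that left out 0 was that of Frzb.

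**Figure D1:**
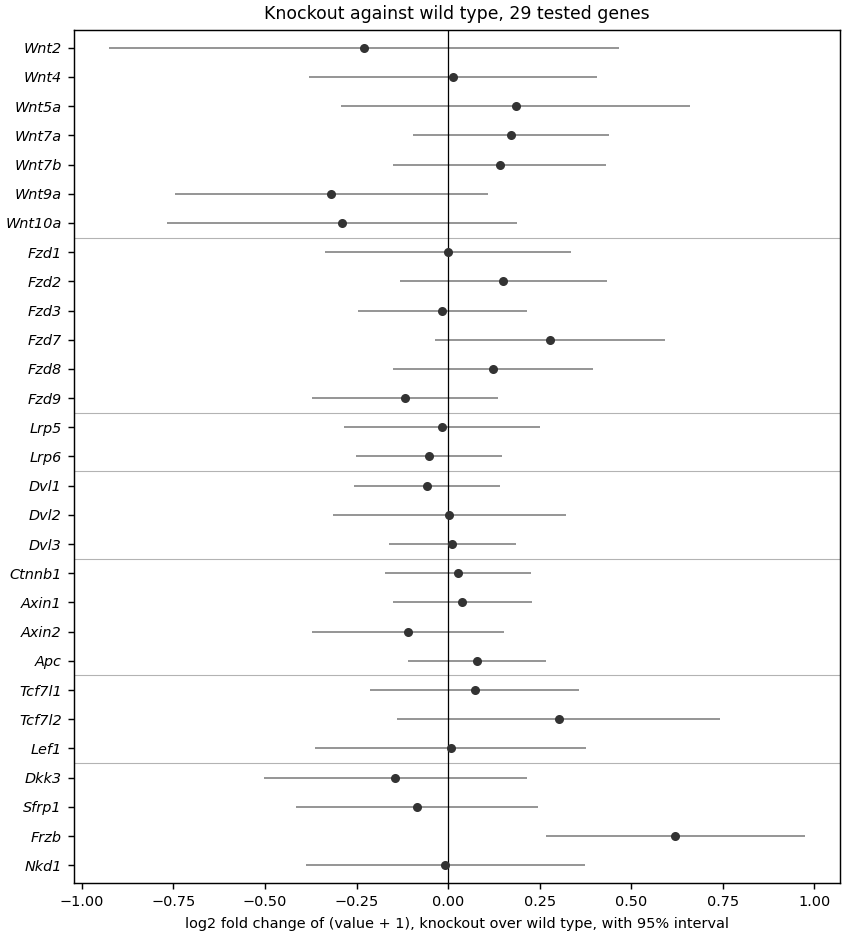
Log2 fold change of (value + 1), knockout over wild type, for the 29 tested Wnt genes in order of role, with points for the limma estimate and bars for its 95% interval (3 libraries a group). All intervals cross 0 except that of Frzb, which runs from 0.27 to 0.97.

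The levels themselves spanned a wide range. Mean values over the 6 libraries ran from 0.190 for Fzd5 to 196.2 for Ctnnb1, a ratio of 1032. Only 8 of the 32 had a mean of 10 or more, namely Ctnnb1, Dkk3, Apc, Dvl1, Wnt7b, Dvl3, Lrp6 and Frzb, and 9 had a mean under 2. Ctnnb1 stood at percentile 97.4 and Dkk3 at percentile 95.3 of the mean levels of all tested genes. The ligands and receptors were lower: Wnt7b at percentile 67.1 was the highest ligand and Fzd3 at percentile 45.5 the highest Frizzled. The 32 values summed to 525.8 ± 4.27 in wild type and 527.9 ± 9.24 in knockout (SD, n = 3 each).

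**Figure D2:**
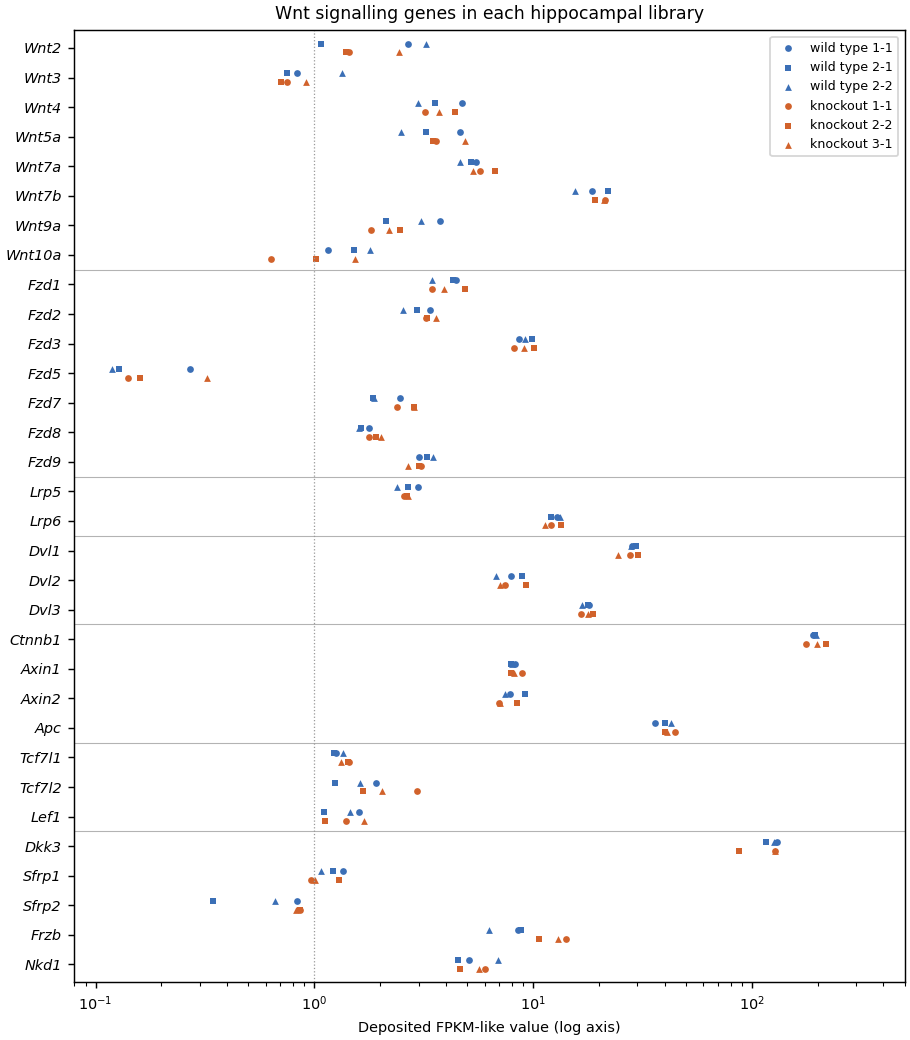
Deposited FPKM-like value (log axis) of all 32 Wnt genes in each of the 6 libraries, grouped by role from ligands at the top to inhibitors at the bottom, with wild type in blue, knockout in orange and a dotted line at 1. The genes differ from each other far more than the libraries do, from Fzd5 at 0.119 to 0.323 up to Ctnnb1 at 176.6 to 219.2.

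Among the ligands, Wnt7b and Wnt7a, close relatives known in brain for vessel formation and for dendrite and synapse growth, were the most abundant. Wnt7b stood at 18.6 in wild type 1-1, 21.9 in 2-1 and 15.5 in 2-2, and at 21.3 in knockout 1-1, 19.2 in 2-2 and 21.02 in 3-1. The groups overlapped, with both the highest and the lowest value in wild type (log2 fold change 0.14, SE 0.12, limma adjusted p = 0.918). Wnt7a was at 5.51, 5.22 and 4.64 against 5.73, 6.71 and 5.29, in the same order of libraries used throughout. Its lowest knockout value lay within the wild-type range (log2 fold change 0.17, SE 0.11, limma adjusted p = 0.893). Wnt7b alone made up 48.1% ± 6.54 of the summed value of the 8 ligands in wild type and 51.4% ± 3.48 in knockout (SD, n = 3 each). Over all 19 mouse Wnt ligands its share was 43.4% ± 6.76 and 46.3% ± 2.87.

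Wnt5a and Wnt4, ligands often tied to signalling without beta-catenin, came next, and their groups overlapped. Wnt5a was at 4.64, 3.24 and 2.49 in wild type and 3.61, 3.50 and 4.90 in knockout (log2 fold change 0.18, SE 0.20, limma adjusted p = 0.933). Wnt4 was at 4.73, 3.56 and 2.99 against 3.22, 4.41 and 3.70, with means of 3.76 and 3.78 and a log2 fold change of 0.01 (SE 0.17, limma adjusted p = 0.994). The highest Wnt4 values, in wild type 1-1 and knockout 2-2, came from the libraries with the largest sums over 10 markers of meningeal and perivascular fibroblasts (81.4 and 74.5, against 41.2 to 58.9 in the other 4). The part of those cells in the Wnt4 values was not tested.

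The other ligands were low. Wnt9a, known from joint and skeletal development, was at 3.76, 2.12 and 3.06 in wild type and 1.82, 2.47 and 2.18 in knockout. Wild type 2-1 lay among the knockout values, and the log2 fold change of -0.32 (SE 0.18, interval -0.75 to 0.11) had a limma adjusted p of 0.893. Wnt10a, known from tooth and hair development, was at 1.15, 1.52 and 1.80 against 0.634, 1.01 and 1.53, with overlap between the groups (log2 fold change -0.29, SE 0.20, limma adjusted p = 0.893). Its values stand for at most 42.2 to 87.2 reads. Wnt2, known from vessel and lung development, had the widest relative spread of the 8 ligands in wild type (SD 48.5% of the mean), with 2.67, 1.07 and 3.25 there and 1.44, 1.39 and 2.44 in knockout. Both extremes of Wnt2 were wild-type libraries (log2 fold change -0.23, SE 0.29, limma adjusted p = 0.95). Its log2 fold change was -0.54 without wild type 2-1 and -0.02 without wild type 2-2. Wnt3, which hippocampal astrocytes are known to release to drive neurogenesis, was too low to test at 0.833, 0.754 and 1.34 against 0.753, 0.706 and 0.913.

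**Figure D3:**
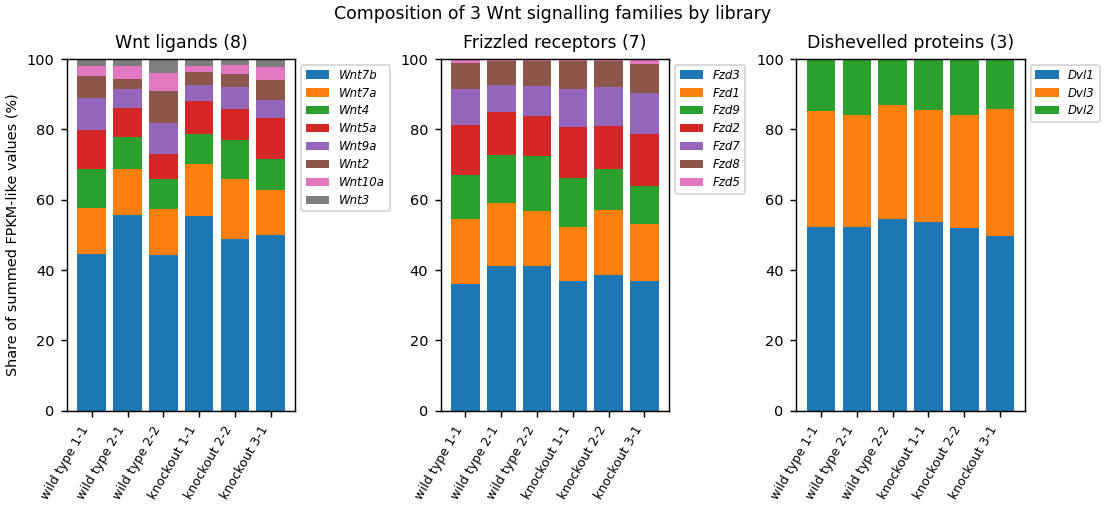
Share of the summed FPKM-like value (percent) taken by each gene of the 8 ligands, the 7 Frizzled receptors and the 3 Dishevelled proteins, 1 stacked bar per library. Wnt7b takes 44.2% to 55.6% of the ligand sum, Fzd3 takes 36.1% to 41.1% of the Frizzled sum and Dvl1 takes 49.7% to 54.5% of the Dishevelled sum.

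Of the Frizzled receptors, Fzd3, needed for the growth of major axon tracts, was the most abundant and carries a seed match. It was at 8.67, 9.87 and 9.15 in wild type and 8.23, 10.1 and 9.05 in knockout. The knockout values straddled those of wild type, and the log2 fold change was -0.02 (SE 0.10, interval -0.25 to 0.21, limma adjusted p = 0.985). Fzd3 made up 39.4% ± 2.91 of the summed value of the 7 Frizzled genes in wild type and 37.5% ± 0.975 in knockout (SD, n = 3 each).

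Fzd8 also carries a seed match, and its groups did not overlap, though by little. Its values were 1.77, 1.64 and 1.61 in wild type and 1.79, 1.92 and 2.02 in knockout, so that wild type 1-1 and knockout 1-1 nearly met. The log2 fold change was 0.12 (SE 0.12, interval -0.15 to 0.40, limma adjusted p = 0.918). Groups without overlap were found for 2 of the 29 Wnt genes, Fzd8 and Frzb, or 6.90%, against 11.4% of all tested genes. Both were higher in knockout, as were 5.7% of all tested genes. With the columns scaled to equal totals, Fzd8 overlapped, and the genes without overlap were Apc, Frzb and Tcf7l1.

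Fzd1, Fzd2 and Fzd7 form a subfamily of similar sequence. Fzd7 was at 2.47, 1.86 and 1.87 in wild type and 2.39, 2.87 and 2.86 in knockout. Wild type 1-1 exceeded knockout 1-1, and the log2 fold change of 0.28 (SE 0.13, interval -0.04 to 0.59) had a limma p of 0.075 and an adjusted p of 0.882. Fzd1 was at 4.46, 4.31 and 3.46 against 3.47, 4.87 and 3.94, with a log2 fold change of 0.00 (limma adjusted p = 1.000). Fzd2, at 3.38, 2.94 and 2.54 against 3.26, 3.27 and 3.61, had a log2 fold change of 0.15 (SE 0.12, limma adjusted p = 0.917). Fzd9, a receptor expressed in the hippocampus, was at 3.00, 3.27 and 3.49 against 3.07, 3.00 and 2.68. There the overlap was slight, with wild type 1-1 just below the upper knockout values (log2 fold change -0.12, SE 0.11, limma adjusted p = 0.918). Fzd5, the closest relative of Fzd8, was not tested, at 0.119 to 0.271 in wild type and 0.140 to 0.323 in knockout, or at most 16.1 to 52.1 reads.

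The co-receptors and the Dishevelled proteins, which pass the signal into the cell, had groups that overlapped throughout. Lrp6, the main co-receptor and the third gene with a seed match, was at 12.8, 12.1 and 13.2 in wild type and 12.1, 13.4 and 11.3 in knockout. Its log2 fold change was -0.05 (SE 0.08, interval -0.25 to 0.15, limma adjusted p = 0.955), so that an increase of more than 0.15 lies outside the interval. Lrp5 was at 2.99, 2.68 and 2.38 against 2.56, 2.66 and 2.69, and Lrp6 supplied 82.6% ± 1.91 and 82.3% ± 1.35 of the sum of both (SD, n = 3 each). Dvl1 was the most abundant Dishevelled gene, at 28.3, 29.5 and 28.1 against 27.8, 30.3 and 24.5. Knockout 2-2 and 3-1 held its highest and lowest values (log2 fold change -0.06, SE 0.08, limma adjusted p = 0.955). Dvl3 was at 16.6 to 18.8 in all 6 libraries and Dvl2 at 6.76 to 9.25, with log2 fold changes of 0.01 (interval -0.16 to 0.18) and 0.00 (interval -0.31 to 0.32). Dvl1, Dvl3 and Dvl2 took 53.0%, 32.5% and 14.5% of their summed value in wild type and 51.8%, 33.4% and 14.8% in knockout.

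Beta-catenin and the scaffold of its destruction complex did not differ beyond the spread of the libraries. Ctnnb1, the gene of beta-catenin (GRCm38 chromosome 9, 120929216 to 120960507, plus strand), was at 190.1, 195.1 and 196.6 in wild type and 176.6, 219.2 and 199.3 in knockout. The wild-type libraries lay close together at 194.0 ± 3.39, while the knockout libraries lay on both sides of them at 198.4 ± 21.3 (SD, n = 3 each). The log2 fold change was 0.03 (SE 0.08, interval -0.17 to 0.23, limma adjusted p = 0.980). Apc, the tumour suppressor that holds beta-catenin in the complex, was at 36.2, 40.1 and 42.9 against 44.7, 40.3 and 41.0 (log2 fold change 0.08, SE 0.08, limma adjusted p = 0.925). Axin1, the scaffold itself, was at 7.93 to 8.31 against 7.90 to 8.92 (log2 fold change 0.04, SE 0.08, limma adjusted p = 0.966). Axin2, which the pathway itself switches on and which is used as its readout, was at 7.85, 9.17 and 7.47 against 6.98, 8.44 and 7.06. Its groups overlapped, with the top value in wild type 2-1 and the next in knockout 2-2 (log2 fold change -0.11, SE 0.11, interval -0.37 to 0.15, limma adjusted p = 0.926). Transcript levels say nothing of beta-catenin protein, whose amount the pathway controls.

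The TCF/LEF factors were all low, between 1.10 and 2.94. Tcf7l2, the most abundant of them and a known marker of thalamic neurons, was at 1.92, 1.24 and 1.61 in wild type and 2.94, 1.67 and 2.04 in knockout. The high knockout mean owed most to knockout 1-1, and the groups overlapped (means 1.59 ± 0.340 and 2.22 ± 0.656, SD, n = 3 each). The log2 fold change was 0.30 (SE 0.19, interval -0.14 to 0.74, limma adjusted p = 0.893), and 0.14 without knockout 1-1. The summed value of 12 thalamus and habenula markers was 51.5 to 55.2 in wild type and 45.9 to 63.8 in knockout. It was lowest in knockout 1-1, where Tcf7l2 was highest. Prkcd, the first of these markers, was at 9.17 in that library, within its wild-type range of 5.08 to 11.2. Gbx2, another of them, was at 0 in all libraries but knockout 3-1. The part of such cells in the Tcf7l2 values was not tested. Tcf7l1, mainly a repressor, was at 1.23 to 1.35 against 1.33 to 1.44, and Lef1 at 1.10 to 1.60 against 1.12 to 1.69, with log2 fold changes of 0.07 and 0.0074.

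Frzb had the largest log2 fold change of the 29 genes. It encodes a secreted Frizzled-related protein (sFRP3) that binds Wnt ligands outside the cell, is made by dentate granule neurons and is known in mice to restrain adult hippocampal neurogenesis. Its values were 8.55, 8.78 and 6.29 in wild type and 14.1, 10.7 and 13.0 in knockout. Every knockout library was above every wild-type library, with means of 7.87 ± 1.37 and 12.6 ± 1.77 (SD, n = 3 each) and a ratio of 1.60. The log2 fold change was 0.62 (SE 0.15, interval 0.27 to 0.97), with a limma p of 0.0043 and an adjusted p of 0.650, so it did not pass the test. By unadjusted p it ranked 96 among the 14708 genes. In the authors' deposited table its log2 fold change was 0.68 with a p of 0.56 and an adjusted p of 1. The gene (ENSMUSG00000027004.3) lies on GRCm38 chromosome 2, 80411970 to 80447625, minus strand, shares no exon bases with another annotated gene and holds no TTGCACT in its 3' UTR. That 3' UTR does hold 1 TGCACT, the shorter word that pairs with bases 2 to 7 only. Other Wnt genes without TTGCACT hold TGCACT too, among them Wnt7b and Axin1 with 1 each. The share of all tested genes with TGCACT was not computed. The Frzb values stand for at most 399 to 1233 reads.

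Markers of dentate granule, CA3 and CA2, CA1 and choroid plexus cells are given beside Frzb. They were not the only lists that differed between libraries. The ependymal and blood sums (53.1 and 441.4) were highest in knockout 1-1, as was Frzb. The sum of meningeal and perivascular fibroblast markers (41.2) was lowest there. The sum of 10 dentate granule markers was 151.9, 151.5 and 134.1 in wild type and 104.1, 160.7 and 161.1 in knockout, and was lowest in knockout 1-1, where Frzb was highest. Of the 9 dentate markers tested, 6 had a log2 fold change above 0 and 0 passed the test. The sum of 11 CA3 and CA2 pyramidal markers was 399.8, 371.4 and 371.3 against 514.8, 406.3 and 401.3, with all 11 log2 fold changes above 0 and 0 called. The 8 CA1 markers summed to 250.4 to 330.2 against 215.9 to 282.4, with 7 of 8 log2 fold changes below 0 and 0 called. The choroid plexus sum over 9 markers was 7.12 to 8.76 in wild type and 8.91 to 20.3 in knockout, with 3 tested, all 3 above 0 and 0 called. Its defining transcript Ttr was at 1.41 to 2.57 against 2.74 to 12.2, while Kcnj13, Otx2 and Slc4a5 were at 0 in some libraries. The CA3 and choroid sums also separated the groups, but narrowly (399.8 against 401.3, and 8.76 against 8.91). Taken singly, 1 of the 11 CA3 and CA2 markers and 1 of the 3 tested choroid markers did so. Of the 8 CA1 markers 3 did so, all 3 lower in knockout, though the CA1 sums overlapped. These are 9.09%, 33.3% and 37.5%, against 11.4% of all tested genes, and 0 of the 9 tested dentate markers did so. An unadjusted limma p under 0.05 was found for 3 CA1, 1 CA3 and CA2, 1 choroid and 0 dentate markers. The shares are again 37.5%, 9.09% and 33.3%, against 5.72% of all tested genes. The part of these cells in the Frzb values was not tested.

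**Figure D4:**
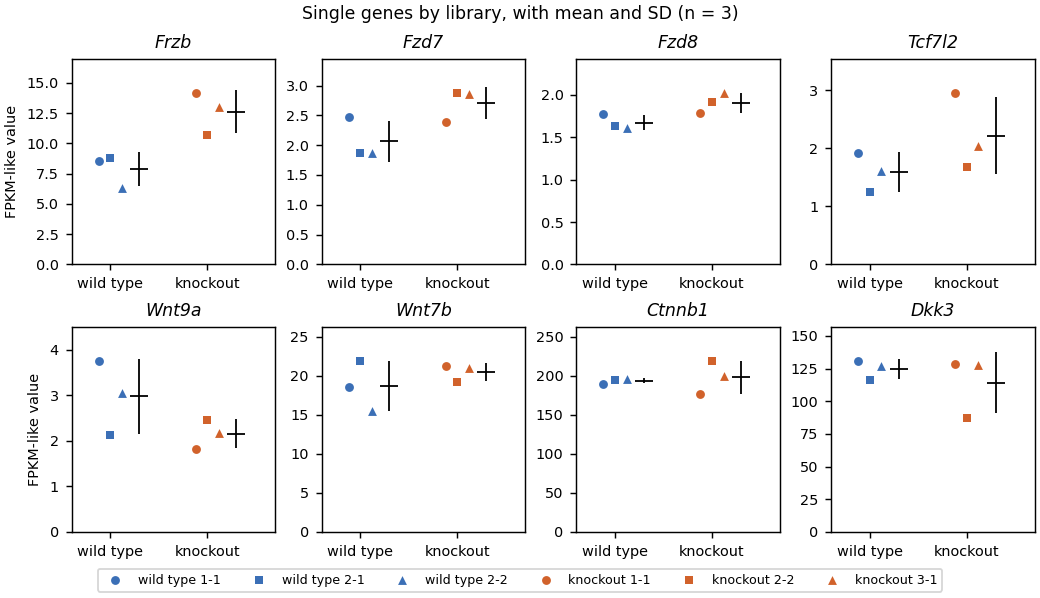
FPKM-like value of 8 Wnt genes in each library, with the mean and SD of each group (n = 3) as a cross to the right of its points and every axis starting at 0. Frzb separates the groups (6.29 to 8.78 against 10.7 to 14.1), Fzd8 separates them narrowly, and the other 6 overlap.

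The other inhibitors overlapped between the groups. Dkk3, a divergent Dickkopf protein abundant in hippocampal neurons, was at 130.9, 116.3 and 126.8 in wild type and 128.4, 87.2 and 127.4 in knockout. Knockout 2-2 alone was low, and the log2 fold change was -0.14 (SE 0.15, interval -0.50 to 0.21, limma adjusted p = 0.929); without that library it was 0.039. Nkd1, a Dishevelled-binding feedback inhibitor, was at 5.11, 4.53 and 6.95 against 6.04, 4.64 and 5.66 (log2 fold change -0.0074, SE 0.16). Sfrp1, another secreted Frizzled-related protein, was at 1.35, 1.22 and 1.07 against 0.965, 1.30 and 1.01 (log2 fold change -0.09, SE 0.14, limma adjusted p = 0.955). Its highest values, like those of Wnt4, were in wild type 1-1 and knockout 2-2. Sfrp2 was not tested, at 0.836, 0.345 and 0.660 against 0.856, 0.860 and 0.823, or at most 15.0 to 50.0 reads.

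The 3 genes with a seed match had log2 fold changes of -0.02, -0.05 and 0.12 (Fzd3, Lrp6 and Fzd8), all with intervals that include 0. High and low values were spread unevenly over the libraries. Of the 29 tested Wnt genes, knockout 2-2 held the highest value of 9 and the lowest of 2, and wild type 2-2 the highest of 4 and the lowest of 10. Exons of 10 Wnt genes overlap a gene on the other strand, among them Ctnnb1 with Ulk4, Dvl2 with Acadvl and Wnt7b with AU022754. Nothing in the sources used here tells whether counting used strand, so those values may include reads of the partner.

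The rest of the pathway was examined in the same fit. Of 87 further genes in 8 lists (other ligands, secretion, other receptors, the R-spondin axis, beta-catenin turnover, nuclear factors, other inhibitors and the planar polarity branch), 61 were tested, 0 passed the limma test, 31 had a log2 fold change above 0 and 30 below. Of these, 3 had an unadjusted limma p under 0.05 (4.92%, against 5.72% of all tested genes) and the groups of 6 did not overlap (9.84%, against 11.4%), with 3 higher and 3 lower in knockout. The 3 were Rspo2, Csnk1d and Daam1, of which the last 2 are named because their values were seen.

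Rspo2, an R-spondin that strengthens Wnt signals by protecting the receptors from removal, was at 8.99, 10.98 and 7.34 in wild type and 4.31, 5.73 and 8.01 in knockout (log2 fold change -0.54, SE 0.22, limma adjusted p = 0.874), with knockout 3-1 inside the wild-type range. Its receptor Lgr4 was at 6.90 to 7.33 against 7.35 to 8.32, a log2 fold change of 0.12 (limma adjusted p = 0.893). Csnk1d, a casein kinase, was at 45.0 to 47.8 against 51.8 to 62.1 (log2 fold change 0.25, limma adjusted p = 0.832). Daam1, a formin of the planar polarity branch whose 3' UTR holds 1 TTGCACT, was at 14.2 to 15.2 against 15.6 to 17.2 (log2 fold change 0.17, limma adjusted p = 0.874). In Lgr4, Csnk1d and Daam1 the groups did not overlap. They also did not overlap, but were lower in knockout, in Csnk1e (46.7 to 48.6 against 41.8 to 46.0) and Cby1 (32.5 to 36.1 against 29.7 to 31.1). The same held for Nlk (14.7 to 15.3 against 13.7 to 13.9). Log2 fold changes of these 3 were -0.10, -0.15 and -0.11, and Csnk1e and Nlk are named because their values were seen. None of the genes passed the test.

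The 2 most abundant genes of the R-spondin axis are Rspo2 and Lgr4, given above with log2 fold changes of -0.54 and 0.12. Those of the other ligands, Wnt5b and Wnt2b, were not tested. In the remaining lists the 2 most abundant genes had log2 fold changes between -0.22 (Dact2) and 0.16 (Prickle2). Porcn, which acylates Wnt ligands, averaged 34.8 in wild type and 35.9 in knockout, and Wls, which carries them to the surface, 8.30 and 8.71. The Wnt receptor Ryk averaged 12.8 and 12.7, and Adgra2, a co-activator of Wnt7 signalling in brain vessels, 3.25 and 2.77. Of the kinases that phosphorylate beta-catenin, Csnk1a1 averaged 123.1 and 129.2 and Gsk3a 97.8 and 95.1. Aes, a short Groucho-related protein, averaged 380.7 and 363.2, and Cby1, which binds beta-catenin, 33.9 and 30.5. Dact3 and Dact2, Dishevelled-binding regulators, averaged 60.5 and 17.2 against 58.6 and 14.6. Prickle2 and Celsr2, of the planar polarity branch, averaged 45.8 and 39.4 against 51.2 and 39.6. None of these genes passed the limma test, their adjusted p lying between 0.874 and 0.995.

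Genes widely used as readouts of beta-catenin and TCF activity were examined as a list of 16, of which 12 were tested. Of the 12, 7 had a log2 fold change above 0 and 5 below, with a median of 0.02, and 0 had an unadjusted limma p under 0.05, which 5.72% of all tested genes had. Ccnd1, cyclin D1, was at 20.3, 12.4 and 17.1 in wild type and 19.2, 21.4 and 16.9 in knockout (log2 fold change 0.21, SE 0.17, limma adjusted p = 0.918). Tnfrsf19 was at 16.2 to 19.01 against 17.4 to 18.01 (log2 fold change 0.03, SE 0.08, limma adjusted p = 0.972). Axin2, also on that list, is given above with the same outcome. A p that misses the threshold does not show that the pathway was equally active in both genotypes.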

How the data were processed

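A gene table (54393 genes, 6 libraries, 3 a genotype) of hippocampal RNA was analysed. The values, deposited by the authors without a named unit, were read as FPKM from their scale, and the depth is unknown. Per the submitters' processing notes, which assign no roles, the tools were bcl2fastq, HISAT2 2.1.0 and HTSeq and the build mm10, whereas the series' design text names BWA with ANOVA and TopHat with Cufflinks. Which of them made the table is not stated. The authors' deposited log2 fold changes and p-values are quoted only where that table is named.

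Values were tested as log2(value + 1), which understates the change of low genes, for genes that reached 1 in 3 libraries or more. The two-sided test was limma's (3.58.1, R 4.3.3), a model with genotype as its term and moderated variances that follow the mean level. P-values were adjusted by Benjamini-Hochberg over all 14708 tested genes, with a threshold of 0.05. The fit was tested on simulated data. Gene models and 3' UTRs came from GENCODE M21 (GRCm38) and microRNAs from RefSeq (GRCm38.p6), read with Python 3.11.15. All 32 genes are named, and of each other pathway list the 2 with the highest mean. Only sums, counts and the first gene are given for marker lists, apart from markers at 0. The genes, lists and rules were chosen with earlier results of these data known. Alternatives covered the offset, the filters, 2 scalings, the trend, a replicate block and leaving out each library. Every value column had a sample.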

Additional observations from a re-analysis of the deposited data

How the results depend on the processing

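No Wnt gene and no other Wnt pathway gene passed the limma threshold under any of the 13 alternatives, and the lowest adjusted p of a Wnt gene was 0.640 (Frzb, without knockout 2-2). The log2 fold change of Frzb lay between 0.49 and 0.73, with adjusted p from 0.640 to 0.993 and unadjusted p from 0.0027 to 0.016. The count of all genes called moved from 16 to 4 with no filter on low values and to 0 with the replicate block; leaving out 1 library gave 4 to 17 (4 without wild type 2-1, 6 without wild type 2-2 and 6 without knockout 2-2). Wnt genes without overlap between the groups numbered 2, or 3 with equal column totals (9.65% over all tested genes), and 4 to 8 with 1 library left out (8 without wild type 1-1, 5 without 2-1 and 4 without 2-2, and 4, 6 and 5 without knockout 1-1, 2-2 and 3-1), where fewer libraries also raise the share over all tested genes to between 19.6% and 22.6%. The median of the Wnt genes was -0.02 to 0.04 with 1 library left out. Wnt genes with an unadjusted limma p under 0.05 numbered 1, but 4 without wild type 2-1 (13.8%, against 5.00% of all tested genes). They numbered 2 (6.90%) without wild type 1-1, with no trend and with the replicate block. The shares of all tested genes there were 5.37%, 5.68% and 4.15%. Some ligands moved widely with the same sign: over all alternatives Wnt2 ran from -0.71 (replicate block) to -0.02, Wnt5a from 0.02 to 0.37 and Wnt7b from 0.02 to 0.26.

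The sign held in every alternative for 15 Wnt genes and changed at least once for 14. An offset of 0.1 gave Fzd1 -0.00024. Equal column totals, a scaling added after the data were seen because the planned median-ratio scaling found all 6 libraries already on 1 scale, gave Fzd3 0.00088 and Nkd1 0.0081. The codes 1-1 and 2-2 occur in both genotypes, but the deviations of same-coded libraries correlated at -0.10 and -0.061, against -0.057 to 0.11 for differently coded pairs. With only 2 shared codes this does not settle what the codes mean, and they were not treated as pairs. The replicate block on these codes gave Wnt4 -0.0028, Fzd3 0.032, Dvl1 0.040, Axin2 0.0039 and Lef1 -0.17. With 1 library left out, the log2 fold changes ran from -0.076 to 0.042 for Lrp5, -0.11 to 0.16 for Wnt4, -0.085 to 0.049 for Fzd3, -0.081 to 0.095 for Lef1, -0.11 to 0.090 for Fzd1, -0.10 to 0.088 for Dvl2, -0.030 to 0.056 for Dvl3, -0.12 to 0.14 for Nkd1, -0.0059 to 0.072 for Axin1, -0.047 to 0.11 for Ctnnb1, -0.24 to 0.039 for Dkk3, -0.11 to 0.0016 for Lrp6 and -0.13 to 0.020 for Dvl1. The cause of these shifts was not tested. Depth limits Fzd5, Sfrp2, Wnt3 and Wnt10a, which stand for under 100 reads per library at most.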

Other observations

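Of the other 11 mouse Wnt ligands, 10 were too low to test, with values from 0 to 1.40. Among them the groups of 2 did not overlap, both lower in knockout, where 6.68% of the 16171 untested genes with a value above 0 had groups apart and 2.70% were lower. The 2 are named here because their values were seen. Wnt8b, a ligand of the developing cortical hem, was at 0.112, 0.259 and 0.175 in wild type and 0.0702, 0.0188 and 0.0323 in knockout, or at most 10.8, 18.2 and 11.9 against 6.6, 1.1 and 2.2 reads. Wnt9b was at 0.234, 0.161 and 0.171 against 0.144, 0.122 and 0.129, or at most 9.4 to 29.4 reads. Wnt5b and Wnt2b, the highest of the 10, had means of 1.06 and 0.874 in wild type and 0.913 and 0.959 in knockout. The inhibitor Dkk1 was listed at 0 in all 6 libraries.

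No marker of the 16 cell-type lists passed the limma test. The median log2 fold change of a list ran from -0.37 for CA1 pyramidal neurons to 0.34 for blood. All 6 ependymal markers and all 5 blood markers had log2 fold changes above 0, and both sums were highest in knockout 1-1 (53.1 against 21.5 to 33.4 in the other libraries for ependymal cells, and 441.4 against 158.9 to 294.6 for blood). The sum of 10 oligodendrocyte markers was 2632 to 3930 in wild type and 2193 to 3254 in knockout, and 8 of its 10 log2 fold changes were below 0.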
